A study of Mus musculus with 24 samples.

Results

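The genes described here are 10 components of Toll-like receptor signalling in the mouse hippocampus: the receptors Tlr1, Tlr2, Tlr3, Tlr4, Tlr7, Tlr9 and Tlr13, the co-receptors Cd14 and Ly96, and the adaptor Myd88. They were taken by symbol from a table of 23240 genes, and all 10 passed the filter on low values that left 15225 genes for testing. RNA was sequenced from hippocampi of male wild-type C57BL/6 mice aged 4 to 8 months, in 24 libraries. Mice received a diet with PLX5562, which the labels give as an inhibitor of the kinase CSF1R, or the same diet without it, for 3 weeks before a stress schedule began. CSF1R is the receptor on which microglia depend for survival, and the labels give depletion of microglia as the purpose of the diet. The stress was chronic unpredictable stress (CUS), a 5-week programme of changing mild stressors. Electroconvulsive therapy (ECT), a seizure induced by current under brief anaesthesia, was then given 3 times a week for 2.5 weeks, and other stressed mice were given sham treatment. The groups were stressed mice on the PLX diet with sham treatment (PLX sham, n = 5), stressed mice on the control diet with sham treatment (control sham, n = 5), stressed mice on the PLX diet with ECT (PLX ECT, n = 4), stressed mice on the control diet with ECT (control ECT, n = 6) and mice on the control diet without stress (nonstressed, n = 4). No nonstressed group on the PLX diet was analysed here. Whether each library stands for its own mouse is not stated in the labels, and the p-values reflect the spread among libraries, which may be partly technical.

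Toll-like receptors recognise molecules that are common to microbes or that damaged cells release. Tlr1, Tlr2 and Tlr4 act at the cell surface, on bacterial lipoproteins and lipopolysaccharide, while Tlr3, Tlr7, Tlr9 and Tlr13 act in endosomes, on double-stranded RNA, single-stranded RNA, CpG DNA and bacterial ribosomal RNA. Cd14 hands lipopolysaccharide to the pair of Tlr4 and Ly96 (MD-2), and all of these receptors except Tlr3 signal through Myd88. In the brain, microglia carry most members of the family, and Tlr3 and Tlr4 have also been described in astrocytes and other cells.

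The libraries held between 14.97 M and 20.12 M gene-assigned reads. Values are normalized reads, for which the authors scaled the count of a gene by a library-wide size factor of 0.917 to 1.205, so a value is close to a number of reads. Marker genes of neurons, astrocytes and oligodendrocytes were abundant in every library, and 0 of the 8, 10 and 8 genes on those lists were called in either diet comparison. Over all tested genes 1.77% were called lower and 0.0854% higher in sham mice, and 1.86% and 0.44% in ECT mice. Lists this short can thus hold no called gene without these cells being unchanged. Log2 fold changes of the astrocyte genes ran from -0.05 to 0.42 (Gfap, SE 0.16) in sham mice. In ECT mice they ran from -0.27 (Fgfr3) to 0.51 (Gfap, SE 0.16). The summed level of a list of 32 microglia core genes (P2ry12, Tmem119, Cx3cr1 and others) was 2561 to 4319 in PLX sham libraries, against 14023 to 16581 in control sham libraries. It was 2433 to 4211 in PLX ECT libraries, against 11979 to 14095 in control ECT libraries and 12640 to 15164 in nonstressed libraries. Libraries also differed in choroid plexus genes, both within groups and between them. The summed levels of the 10 listed genes were 2235 to 67696 in PLX sham, 1631 to 52495 in control sham, 2278 to 51767 in PLX ECT, 1601 to 34652 in control ECT and 14526 to 84640 in nonstressed libraries. Their median was 34265 in PLX sham, against 1925 in control sham libraries, and 2813 in PLX ECT, against 9235 in control ECT libraries. None of the 10 was called in either diet comparison, with a median log2 fold change of 1.52 in sham and -0.35 in ECT mice. In sham mice the diet and the choroid plexus content of the libraries are thus partly mixed.

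On the PLX diet the hippocampus lost most of its transcripts for Cd14, Tlr13 and Tlr7 and more than 1 in 2 of those for Tlr1, while Tlr3 and Myd88 were not called different in either treatment arm. In sham mice 5 of the 10 genes were lower on PLX at an adjusted p below 0.05 (Cd14, Tlr13, Tlr7, Tlr9 and Tlr1) and none was higher, while 1.77% of all tested genes were called lower and 0.0854% higher. In ECT mice 4 of 10 were lower (Cd14, Tlr13, Tlr7 and Tlr1) and none was higher, with 1.86% of all tested genes called lower and 0.44% higher. Averaged over sham and ECT mice, 6 of 10 were lower, those of sham mice and Tlr2, with 2.56% of all tested genes called lower and 0.493% higher. The median log2 fold change of the 10 genes was -1.11 in sham and -0.86 in ECT mice, against 0.00098 and 0.0027 over all tested genes. Tests were limma fits on log2(normalized reads + 1) with Benjamini-Hochberg adjustment over the 15225 tested genes, a scale that understates the change of genes with few reads. In bulk tissue, fewer cells of a type and less RNA per cell cannot be told apart.

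**Figure D1:**
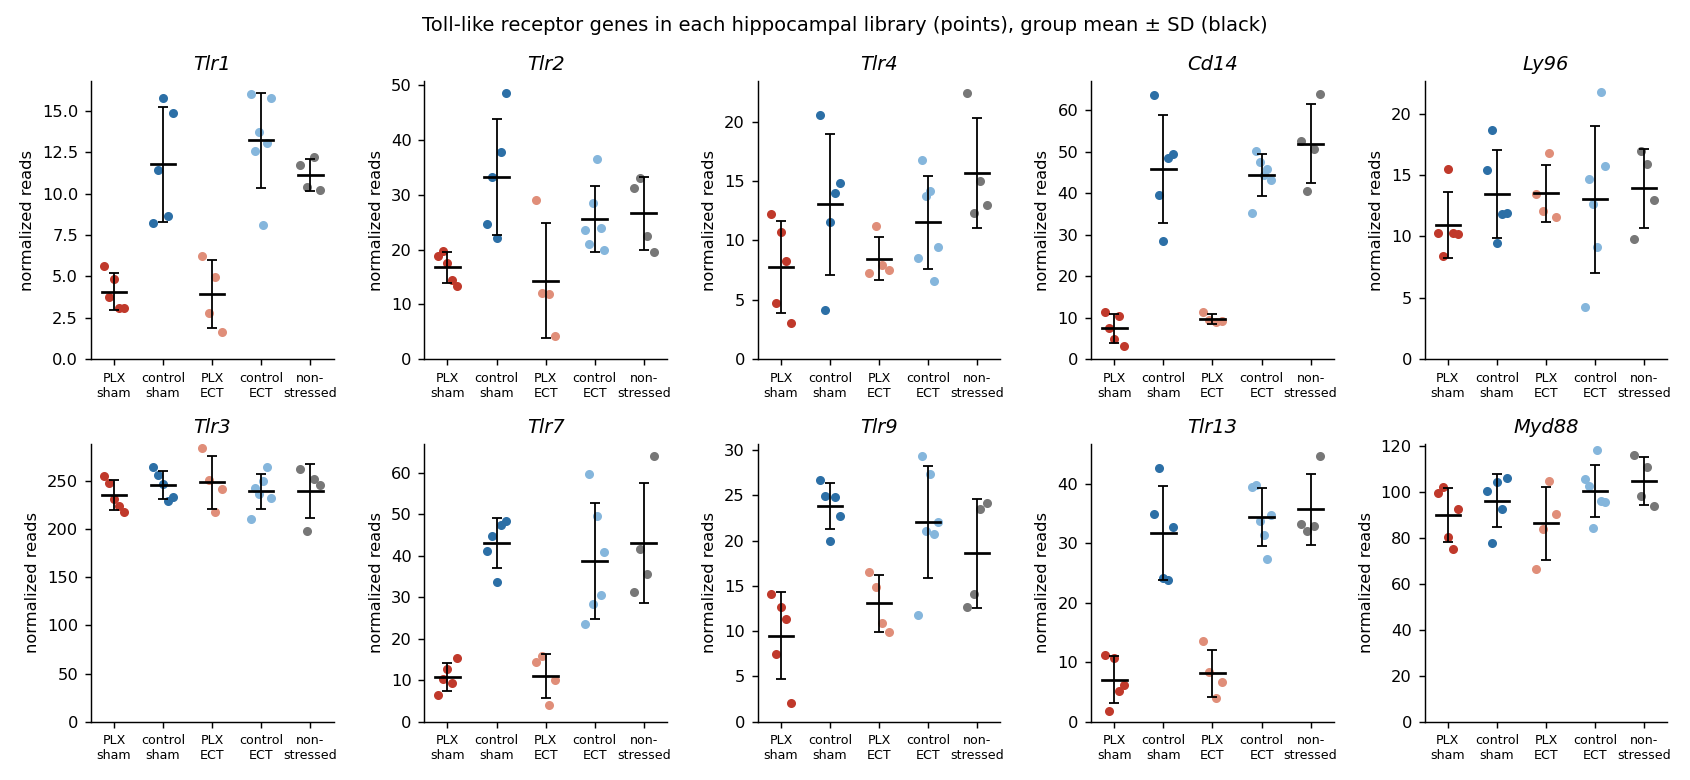
Normalized reads of each of the 10 genes (vertical axes, each starting at 0 and with its own scale) in every library (points) of the 5 groups, with the group mean and SD in black. For Cd14, Tlr7, Tlr13 and Tlr1 every PLX library lay below every control-diet library of the same treatment, whereas the 5 groups of Tlr3 averaged 235 to 248 normalized reads.

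The sequence before the start site is shown for 4 receptors that were lower on PLX in at least 1 of the comparisons (Tlr1, Tlr2, Tlr9, Tlr13) and for the pair that was not (Tlr3, Myd88). These are the 6 of the 10 genes for which RefSeq promoter windows (build GRCm38.p6) were used, with both starts of Tlr1, and the 250 bases before the start site are printed 5′ to 3′ on the gene's strand. Start sites differ between annotations. The printed bases of Tlr3, Myd88 and the other start of Tlr1 lie wholly inside the gene spans of GENCODE M21 given below. Those of Tlr2, Tlr13 and the first start of Tlr1 overlap these spans in part. Sequence before the GENCODE starts was not searched separately. Capitals mark GAGGAA on either strand, the core that the macrophage factor PU.1 (Spi1) binds, or a tandem interferon response element, GAAA repeated after a gap of 2 bases.
Tlr1 (chr5:64933559-64933808, minus strand): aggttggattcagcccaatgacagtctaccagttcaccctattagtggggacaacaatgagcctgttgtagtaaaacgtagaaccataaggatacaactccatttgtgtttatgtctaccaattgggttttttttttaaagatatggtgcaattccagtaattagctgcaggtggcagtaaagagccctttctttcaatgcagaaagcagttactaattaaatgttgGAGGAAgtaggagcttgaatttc
Tlr1, other start (chr5:64932700-64932949, minus strand): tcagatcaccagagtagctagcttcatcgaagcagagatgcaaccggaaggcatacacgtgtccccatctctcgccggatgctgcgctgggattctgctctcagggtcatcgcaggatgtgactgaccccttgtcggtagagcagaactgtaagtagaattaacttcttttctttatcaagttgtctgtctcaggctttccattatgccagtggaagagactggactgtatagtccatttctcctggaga
Tlr2 (chr3:83841609-83841858, minus strand): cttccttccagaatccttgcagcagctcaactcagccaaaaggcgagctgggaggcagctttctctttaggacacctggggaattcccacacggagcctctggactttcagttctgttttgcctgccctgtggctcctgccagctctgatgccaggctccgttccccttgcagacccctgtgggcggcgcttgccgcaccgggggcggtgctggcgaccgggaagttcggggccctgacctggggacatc
Tlr9 (chr9:106222348-106222597, plus strand): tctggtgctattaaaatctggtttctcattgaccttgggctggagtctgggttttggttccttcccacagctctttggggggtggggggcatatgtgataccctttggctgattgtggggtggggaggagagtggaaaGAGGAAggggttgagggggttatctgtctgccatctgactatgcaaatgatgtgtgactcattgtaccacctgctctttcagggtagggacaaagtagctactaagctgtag
Tlr13 (chrX:106143025-106143274, plus strand): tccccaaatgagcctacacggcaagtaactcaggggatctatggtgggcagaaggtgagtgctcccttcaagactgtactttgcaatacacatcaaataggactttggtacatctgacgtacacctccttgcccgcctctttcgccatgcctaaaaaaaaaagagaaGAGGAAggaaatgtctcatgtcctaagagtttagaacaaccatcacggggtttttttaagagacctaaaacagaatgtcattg
Tlr3 (chr8:45410381-45410630, minus strand): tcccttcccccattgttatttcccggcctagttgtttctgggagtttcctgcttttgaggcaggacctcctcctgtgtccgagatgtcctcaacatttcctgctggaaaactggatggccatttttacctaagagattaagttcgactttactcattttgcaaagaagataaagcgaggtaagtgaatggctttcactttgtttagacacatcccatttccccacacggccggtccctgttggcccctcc
Myd88 (chr9:119340019-119340268, minus strand): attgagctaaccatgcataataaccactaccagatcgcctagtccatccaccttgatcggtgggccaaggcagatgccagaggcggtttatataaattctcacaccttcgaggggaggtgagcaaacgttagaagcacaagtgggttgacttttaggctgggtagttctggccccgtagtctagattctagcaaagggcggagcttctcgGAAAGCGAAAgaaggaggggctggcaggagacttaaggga
GAGGAA began 23 bases before the first start shown for Tlr1, 83 before it in Tlr13 and 112 before it in Tlr9, whose full window of 300 bases held another copy after the start. The full windows of Tlr2, Tlr3 and Myd88 and that of the other start of Tlr1 held no copy, and 28.3% of all 32851 windows held at least 1. The interferon element stood 40 bases before the start in Myd88 and in 3.44% of all windows. Searched as well, on both strands and not in capitals, were an NF-kB motif (GGG, any 5 bases, CC) and the AP-1 motif TGANTCA. The NF-kB motif had 5 matches in Tlr2, several of them overlapping, 3 in Tlr3 and none in the other windows, and it was in 50.8% of all windows. AP-1 had 1 match, in Tlr9, and was in 7.81% of all windows. Such matches describe letters only and do not show binding.

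Among the surface receptors and co-receptors, Cd14 showed the largest difference between diets. Cd14 (chromosome 18, 36725067 to 36726798 in GRCm38, a single exon) encodes the lipid-anchored protein that delivers lipopolysaccharide to Tlr4. Its normalized reads were 11.3, 7.50, 4.86, 10.3 and 3.06 in PLX sham libraries, against 63.7, 39.5, 28.4, 48.5 and 49.5 in control sham libraries. They were 11.4, 9.31, 8.91 and 9.13 in PLX ECT libraries, against a lowest, median and highest value of 35.2, 45.2 and 50.3 in control ECT libraries. Nonstressed libraries had 52.7, 40.6, 50.7 and 64.1. The highest PLX library was thus below the lowest control-diet library under both treatments. The log2 fold change was -2.55 (SE 0.24, adjusted p = 8.60e-08) in sham and -2.08 (SE 0.25, adjusted p = 2.69e-06) in ECT mice.

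Tlr1 (chromosome 5, 64924679 to 64933563), the partner of Tlr2 in recognising triacylated lipoproteins, was a gene with few reads. It had 5.63, 3.75, 4.86, 3.09 and 3.06 normalized reads in PLX sham libraries, against 8.22, 11.4, 15.8, 8.63 and 14.9 in control sham libraries. PLX ECT libraries had 6.22, 2.79, 4.95 and 1.66, against a lowest, median and highest value of 8.10, 13.4 and 16.0 in control ECT libraries, and nonstressed libraries had 11.7, 10.4, 12.2 and 10.2. Neither pair of diet groups overlapped. Its log2 fold change was -1.32 (SE 0.27, adjusted p = 0.0049) in sham and -1.61 (SE 0.28, adjusted p = 0.000596) in ECT mice. With the choroid plexus and thalamus list means as covariates the sham difference was -1.18 and was no longer called (adjusted p = 0.0939). The neighbouring paralog Tlr6, the partner of Tlr2 for diacylated lipoproteins, did not pass the filter, and how the authors' counting divided reads between the paralogs is uncertain.

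Tlr2 (chromosome 3, 83836272 to 83841767), the shared chain of both lipoprotein receptors, was intermediate. It had 18.8, 19.7, 17.5, 14.4 and 13.2 normalized reads in PLX sham libraries, against 24.6, 33.3, 22.1, 37.8 and 48.5 in control sham libraries, and these groups did not overlap. In PLX ECT libraries it had 29.0, 12.1, 11.9 and 4.15, against a lowest, median and highest value of 20.0, 23.7 and 36.4 in control ECT libraries, and nonstressed libraries had 31.2, 33.1, 22.5 and 19.5. Library 12 of the PLX ECT group lay inside the control ECT range and the other PLX ECT libraries lay below it. The log2 fold change was -0.91 (SE 0.31, adjusted p = 0.221) in sham and -1.03 (SE 0.32, adjusted p = 0.107) in ECT mice, neither called, and -0.97 (SE 0.22, adjusted p = 0.00996) averaged over both, which was called. Without library 12 the ECT difference was -1.45 and was called (adjusted p = 0.00334). That library had the highest mean log2 level of the microglia core genes in its group (6.10, against 5.33 to 5.61 in the others) and of the choroid plexus genes (1.87 relative to the mean of all libraries, against -1.51 to -1.37). The part of these differences in its Tlr2 level was not tested.

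Tlr4 and Ly96, which together form the lipopolysaccharide receptor, were not called in either diet comparison. Tlr4 (chromosome 4, 66827584 to 66930284) had 12.2, 4.69, 10.7, 8.24 and 3.06 normalized reads in PLX sham libraries, against 20.5, 4.16, 11.6, 14.0 and 14.9 in control sham libraries. The PLX ECT values were 7.26, 11.2, 7.92 and 7.47, against a lowest, median and highest value of 6.54, 11.6 and 16.8 in control ECT libraries, and nonstressed libraries had 22.5, 12.3, 15.0 and 13.0. The diet groups overlapped under both treatments. The log2 fold change was -0.67 (95% CI -1.40 to 0.06, adjusted p = 0.584) in sham and -0.36 (95% CI -1.11 to 0.38, adjusted p = 0.782) in ECT mice, so these libraries could not tell a loss like that of Tlr1 from no difference in sham mice. Ly96 (chromosome 1, 16688051 to 16709611) had 10.3, 8.44, 15.5, 10.3 and 10.2 in PLX sham libraries, against 15.4, 18.7, 9.47, 11.9 and 11.9 in control sham libraries. With ECT the PLX libraries had 13.5, 12.1, 16.8 and 11.6, against a lowest, median and highest value of 4.27, 13.7 and 21.8 in control ECT libraries, and nonstressed libraries had 9.77, 17.0, 15.9 and 13.0. All Ly96 groups overlapped, with log2 fold changes of -0.27 (95% CI -0.87 to 0.34, adjusted p = 0.845) in sham and 0.17 (95% CI -0.45 to 0.79, adjusted p = 0.892) in ECT mice.

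Of the endosomal receptors, Tlr13, Tlr7 and Tlr9 had lower levels on PLX in at least 1 treatment arm and Tlr3 in neither. Tlr13 (chromosome X, 106143204 to 106160493), the mouse sensor of bacterial 23S ribosomal RNA, had 11.3, 1.88, 10.7, 5.15 and 6.11 normalized reads in PLX sham libraries, against 34.9, 42.6, 24.2, 23.7 and 32.7 in control sham libraries. PLX ECT libraries had 13.5, 8.38, 3.96 and 6.64, against a lowest, median and highest value of 27.3, 34.2 and 39.8 in control ECT libraries, and nonstressed libraries had 33.2, 32.1, 32.8 and 44.6. Every PLX library was below every control-diet library, and the log2 fold change was -2.17 (SE 0.31, adjusted p = 4.14e-05) in sham and -2.05 (SE 0.32, adjusted p = 0.000124) in ECT mice. Tlr7 (chromosome X, 167304929 to 167330558), a receptor of single-stranded RNA, had 6.57, 10.3, 12.6, 9.28 and 15.3 in PLX sham libraries, against 41.1, 44.7, 33.7, 47.5 and 48.5 in control sham libraries. The PLX ECT libraries showed 14.5, 15.8, 3.96 and 9.96, against a lowest, median and highest value of 23.5, 35.8 and 59.7 in control ECT libraries, and nonstressed libraries had 31.2, 41.5, 35.7 and 64.1. Tlr7 also separated the diets without overlap, with log2 fold changes of -1.94 (SE 0.30, adjusted p = 0.000117) in sham and -1.79 (SE 0.30, adjusted p = 0.000449) in ECT mice.

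Tlr9 (chromosome 9, 106222598 to 106226883), the receptor of unmethylated CpG DNA, was called lower on PLX in sham mice and not in ECT mice, and the difference between the arms did not pass its own test. It had 14.1, 7.50, 12.6, 11.3 and 2.04 normalized reads in PLX sham libraries, against 26.7, 24.9, 20.0, 24.8 and 22.8 in control sham libraries, with no overlap. Values of PLX ECT libraries were 16.6, 14.9, 10.9 and 9.96, against a lowest, median and highest value of 11.7, 21.6 and 29.3 in control ECT libraries, where the groups overlapped. Nonstressed libraries had 12.7, 14.2, 23.5 and 24.1, so 2 of them lay inside the PLX ECT range. The log2 fold change was -1.43 (SE 0.33, adjusted p = 0.0145) in sham and -0.69 (SE 0.34, adjusted p = 0.445) in ECT mice, and the interaction was 0.74 (SE 0.47, adjusted p = 0.805). The sham call was lost with only the compared groups in the fit (adjusted p = 0.0916) and with the choroid plexus and thalamus list means as covariates (log2 fold change -1.09, adjusted p = 0.229). Averaged over both arms Tlr9 had -1.06 (SE 0.24, adjusted p = 0.00746), a call that was lost with those covariates (adjusted p = 0.0984) and without the 8 libraries highest in thalamus genes (adjusted p = 0.0635).

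Tlr3 (chromosome 8, 45395665 to 45411080), the receptor of double-stranded RNA and the family member that signals through Ticam1 and not Myd88, had overlapping values on both diets. It had 255, 248, 231, 224 and 218 normalized reads in PLX sham libraries, against 264, 256, 246, 229 and 233 in control sham libraries. On PLX with ECT the libraries had 284, 251, 218 and 241, against a lowest, median and highest value of 210.3, 239 and 264 in control ECT libraries, and nonstressed libraries had 262, 198, 251 and 245. The 5 groups overlapped throughout. The log2 fold change was -0.06 (95% CI -0.23 to 0.10, adjusted p = 0.875) in sham and 0.05 (95% CI -0.12 to 0.22, adjusted p = 0.876) in ECT mice, which puts the level left on PLX at 85.4 to 107% and at 92.2 to 117% of the control-diet level. Exons of Tlr3 share 381 bases with the opposite-strand gene Gm45542, and reads of such a pair cannot be told apart where the strand setting of the counting is not known.

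Myd88 (chromosome 9, 119335934 to 119341411), the adaptor that joins the other receptors here and the interleukin-1 receptor to their kinases, was likewise not called. It had 99.4, 102, 80.6, 75.2 and 92.7 normalized reads in PLX sham libraries, against 101, 77.9, 104, 92.8 and 106 in control sham libraries. After ECT, PLX libraries had 66.4, 83.8, 105 and 90.4, against a lowest, median and highest value of 84.3, 99.3 and 118 in control ECT libraries, and nonstressed libraries had 116, 98.2, 111 and 93.8. The diet groups overlapped under both treatments. The log2 fold change was -0.10 (95% CI -0.35 to 0.16, adjusted p = 0.871) in sham and -0.23 (95% CI -0.49 to 0.03, adjusted p = 0.528) in ECT mice, or 78.4 to 111% and 71.4 to 102% of the control-diet level. Its exons share 290 bases with the opposite-strand gene Acaa1a, a peroxisomal enzyme gene, so part of its reads could belong to that gene.

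**Figure D2:**
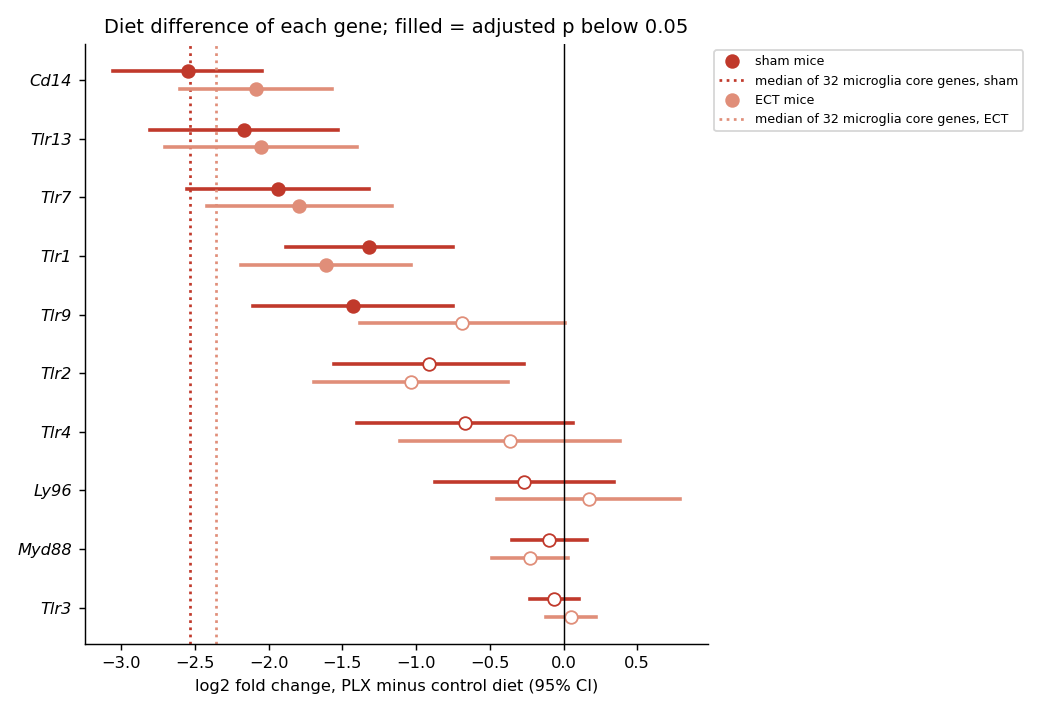
Log2 fold change between PLX and control diet (horizontal axis, on log2(normalized reads + 1)) of each gene in sham (dark) and ECT mice (light), with 95% confidence intervals. Filled points had an adjusted p below 0.05, and dotted lines mark the median of the 32 microglia core genes, -2.54 in sham and -2.36 in ECT mice; Cd14, Tlr13 and Tlr7 lie nearest to these lines and Tlr3 and Myd88 lie near 0.

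Separation by library gave the called genes and, in sham mice, Tlr2 as well. All PLX sham libraries were below all control sham libraries for 6 of the 10 genes (Tlr1, Tlr2, Tlr7, Tlr9, Tlr13 and Cd14), against 2.51% of all tested genes. In ECT mice this held for 4 of 10 (Tlr1, Tlr7, Tlr13 and Cd14), against 2.23% of all tested genes. None of the 10 genes was higher in all PLX libraries than in all control-diet libraries, which held for 0.841% of all tested genes in sham and 1.01% in ECT mice.

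The fall of each gene was then set against that of the microglia core, by subtracting each library's mean log2 level of the 32 core genes before the fit. The core genes had a median log2 fold change of -2.54 in sham mice (31 of 32 called lower) and -2.36 in ECT mice (32 of 32). Over all tested genes 1.77% and 1.86% were called lower. Cd14 and Tlr13 were not called different from the core in either arm. For Cd14 the difference from the core was -0.30 (95% CI -0.82 to 0.23) in sham and 0.28 (95% CI -0.25 to 0.82) in ECT mice, and for Tlr13 it was 0.08 (95% CI -0.57 to 0.74) and 0.32 (95% CI -0.35 to 0.98), from ordinary linear models with 19 residual degrees of freedom. The intervals leave room for unequal falls, and a pseudocount of 8 in place of 1 made the Tlr13 difference pass in both arms and that of Cd14 in ECT mice.

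Tlr7 differed from the core by 0.32 in sham mice (95% CI -0.34 to 0.97, not called) and by 0.57 in ECT mice (95% CI -0.10 to 1.25), where the limma call had an adjusted p of 0.0491. That call was lost in 8 of 11 other settings, the ordinary model (adjusted p = 0.0899) among them. It was also lost in 13 of 24 limma fits with 1 library left out (adjusted p up to 0.244). Tlr1 fell less than the core by 0.93 in sham (95% CI 0.45 to 1.42) and by 0.76 in ECT mice (95% CI 0.26 to 1.25). The Tlr1 call was lost with edgeR, DESeq2 and limma-voom on the recovered reads in both arms (adjusted p = 0.0668 to 0.165 in sham and 0.239 to 0.308 in ECT mice), and in ECT mice also when most single libraries were left out (adjusted p up to 0.19). Tlr9 fell less than the core by 0.82 (95% CI 0.20 to 1.44) in sham and 1.68 (95% CI 1.05 to 2.31) in ECT mice, and Tlr2 by 1.34 (95% CI 0.77 to 1.92) and 1.33 (95% CI 0.75 to 1.92). The Tlr9 call in sham mice was lost without library 17 (adjusted p = 0.0594), with limma-voom (adjusted p = 0.11) and without the 8 libraries highest in thalamus genes (adjusted p = 0.0853). For Tlr4, Ly96, Myd88 and Tlr3 the difference from the core was 1.58 to 2.19 in sham and 2.01 to 2.54 in ECT mice, called in each. In all, 7 of 10 genes in sham and 8 of 10 in ECT mice were called different from the core, the latter with the unstable call of Tlr7. Over all tested genes 99.2% and 99.3% were, a larger share than among the 10 genes. A call of difference from the core is thus usual for a gene here and does not mark out the members that had it.

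Markers of border and perivascular macrophages, which also carry Toll-like receptors, moved with the diet as well. The summed level of the 8 listed genes was 46.9 to 60.8 in PLX sham libraries, against 241 to 310.0 in control sham libraries, and 31.5 to 47.7 in PLX ECT libraries, against 194 to 321 in control ECT libraries. Of the 6 that were tested, 4 were lower in sham and 6 in ECT mice, against 1.77% and 1.86% of all tested genes. Mrc1, which encodes the mannose receptor of these cells, had a mean of 2.16 ± 0.84 normalized reads in PLX sham, against 30.6 ± 10.0 in control sham libraries (SD, n = 5 each). Ms4a7 was at 0 in all PLX ECT libraries. Their part in the fall of Cd14 and the receptors was not tested. Monocyte and neutrophil markers were near the floor in all groups (0 of 8 listed genes passed the filter, and the summed level was 12.2 to 54.4 in PLX sham, against 7.92 to 50.5 in control sham libraries).

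No difference with ECT or stress was detectable for these genes. Between ECT and sham mice on the PLX diet, 0 of 10 genes were called by limma and 0 had an unadjusted p below 0.05, with log2 fold changes of -0.46 (Tlr2) to 0.59 (Tlr9). On the control diet 0 of 10 were called and 0 had an unadjusted p below 0.05, with log2 fold changes of -0.34 (Tlr2) to 0.17 (Tlr1). Between stressed sham and nonstressed mice on the control diet 0 of 10 were called and 0 had an unadjusted p below 0.05, with log2 fold changes of -0.35 (Tlr4) to 0.39 (Tlr9). The interaction of diet and ECT was called for 0 of 10 genes, 0 at an unadjusted p below 0.05, with log2 values of -0.29 (Tlr1) to 0.74 (Tlr9). edgeR and DESeq2 on the recovered reads also called 0 of 10 in each of these comparisons. Of all tested genes, 0.0%, 0.00657%, 0.0% and 0.0% were called in these 4 comparisons. The widest 95% confidence interval of a gene reached 0.78 to either side of its value between ECT and sham mice on PLX (Tlr4). For the interaction it reached 1.05 (Tlr4). Moderate differences, and larger ones in the interaction, could thus not be seen at this depth and number of libraries. The PLX sham and control sham libraries serve in several of these comparisons, which are therefore not independent.

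For Cd14, Tlr13 and Tlr7, as for Tlr1, Tlr2, Tlr4, Tlr9 and Myd88, both PLX groups averaged below the 3 control-diet groups. The group means were 7.40 ± 3.49 (PLX sham), 45.9 ± 13.1 (control sham), 9.69 ± 1.16 (PLX ECT), 44.4 ± 5.14 (control ECT) and 52.0 ± 9.62 (nonstressed) normalized reads of Cd14. For Tlr13 the means were 7.02 ± 3.94 (PLX sham), 31.6 ± 7.90 (control sham), 8.11 ± 4.01 (PLX ECT), 34.4 ± 4.82 (control ECT) and 35.7 ± 5.94 (nonstressed). For Tlr7 they were 10.8 ± 3.31 (PLX sham), 43.1 ± 6.00 (control sham), 11.1 ± 5.36 (PLX ECT), 38.8 ± 13.9 (control ECT) and 43.1 ± 14.6 (nonstressed), all as mean ± SD with n = 5, 5, 4, 6 and 4. Neither PLX ECT against PLX sham, nor control ECT or nonstressed against control sham, was called for any of the 3 genes.

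To compare genes with each other, normalized reads were divided by the length of each gene's merged exons in GENCODE M21. On this per-kilobase scale Tlr3 had the highest and Myd88 the next highest level of the 10 genes in every group. Tlr3 averaged 45.2 ± 3.03 per kb in PLX sham, against 47.1 ± 2.86 in control sham libraries, and 47.7 ± 5.27 in PLX ECT, against 45.9 ± 3.46 in control ECT libraries. Cd14 was next in control-diet mice but not on PLX, with 4.27 ± 2.01 per kb in PLX sham, against 26.5 ± 7.54 in control sham libraries, and 5.59 ± 0.67 in PLX ECT, against 25.6 ± 2.97 in control ECT libraries. Ly96 held that place on PLX, with 10.7 ± 2.63 per kb in PLX sham, against 13.2 ± 3.54 in control sham libraries.

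The make-up of the receptor transcripts was set side by side as well. Summed per kb over the 12 Toll-like receptor genes in the table, the level was 64.2 ± 6.25 in PLX sham, against 96.1 ± 5.11 in control sham libraries, and 67.3 ± 12.2 in PLX ECT, against 91.1 ± 7.18 in control ECT libraries. Without Tlr3 the sums were 19.0 ± 3.70 in PLX sham, against 49.0 ± 5.31 in control sham libraries, and 19.6 ± 7.31 in PLX ECT, against 45.2 ± 5.23 in control ECT libraries. Tlr3 made up 70.5 ± 3.17% of the sum in PLX sham, against 49.1 ± 3.47% in control sham libraries, and 71.6 ± 5.52% in PLX ECT, against 50.5 ± 2.78% in control ECT libraries. In nonstressed libraries its share was 49.7 ± 3.69%. The lowest share on PLX was 64.9% and the highest on the control diet 55.3%, so the diets did not overlap. A share rises when the other parts of the sum fall, so this restates the lower levels of the other receptors and is not a further result. Over the same groups the share of Tlr13 was 2.50 ± 1.26% in PLX sham, against 7.60 ± 1.63% in control sham libraries, while that of Tlr4 was 2.13 ± 0.94%, against 2.44 ± 1.08%.

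**Figure D3:**
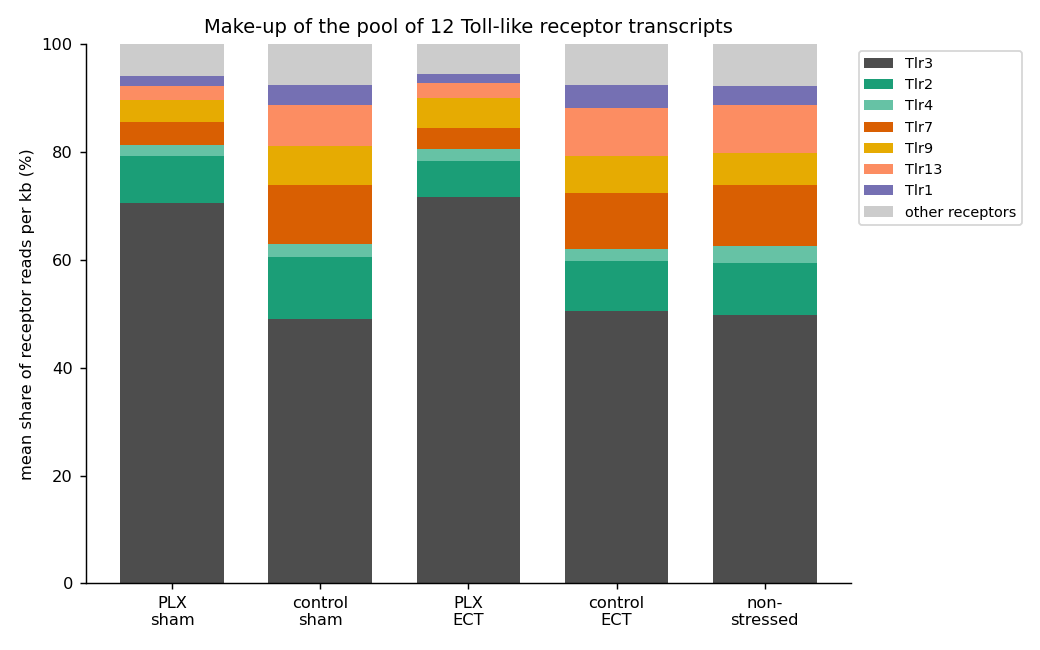
Mean share (vertical axis, percent) of each receptor in the summed reads per kb of 12 Toll-like receptor genes, for the 5 groups. Tlr3 takes 70.5% and 71.6% of the sum in the PLX groups and 49.1 to 50.5% in the control-diet groups.

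Other genes of the pathway also divided into a few that fell and a majority that were not called. Of 6 other receptors, only Cd180 and Tlr12 passed the filter. Cd180, a Tlr4-like receptor best known from B cells, had 17.7 ± 7.58 normalized reads in PLX sham, against 65.4 ± 7.71 in control sham libraries (log2 fold change -1.90, SE 0.24, adjusted p = 5.50e-06). It had 18.6 ± 8.59 in PLX ECT, against 40.5 ± 3.77 in control ECT libraries (log2 fold change -1.18, SE 0.24, adjusted p = 0.00497), a call that was lost without library 15 (adjusted p = 0.0522). Tlr12, a mouse receptor of profilin from protozoa, was lower in sham mice (log2 fold change -1.23, adjusted p = 0.0145) and not called in ECT mice (-0.67, adjusted p = 0.353). Its sham call was lost with only the compared groups in the fit, with the tissue covariates, or without library 9, 19 or 21 (adjusted p = 0.0512 to 0.0789). Tlr5, Tlr6, Tlr8 and Tlr11 had too few reads to be tested. Tlr5, the flagellin receptor, had a mean of 4.28 normalized reads in PLX sham, against 6.01 in control sham libraries. It had 0.70 in PLX ECT, against 5.62 in control ECT libraries, where the groups did not overlap. The PLX ECT mean lay under the floor of 3 reads. How often genes with so few reads separate in this way was not counted. Tlr8 had 0 reads in every PLX library and a mean of 0.83 in control sham libraries, under the floor of 3 reads.

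Of 6 co-receptors and trafficking genes, 2 were lower on PLX in each arm, against 1.77% of all tested genes in sham and 1.86% in ECT mice. Unc93b1, the chaperone that carries the endosomal receptors out of the endoplasmic reticulum, had 105 ± 16.4 normalized reads in PLX sham, against 356 ± 19.9 in control sham libraries (log2 fold change -1.77, SE 0.10, adjusted p = 9.23e-12), and 96.8 ± 17.4 in PLX ECT, against 306 ± 18.3 in control ECT libraries (-1.67, SE 0.10, adjusted p = 4.18e-11). Ly86 (MD-1), the partner of Cd180, had log2 fold changes of -1.91 in sham (adjusted p = 1.06e-06) and -1.95 in ECT mice (adjusted p = 1.18e-06). The folding chaperones Hsp90b1 and Cnpy3, on which many receptors depend, the lipopolysaccharide-binding protein gene Lbp and the scavenger receptor gene Cd36 were not called. Cnpy3 had 917 ± 34.7 normalized reads in PLX sham, against 943 ± 42.6 in control sham libraries.

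Of 21 other adaptors and kinases, 2 were lower in each arm and 19 were not called. The share called lower over all tested genes was 1.77% in sham and 1.86% in ECT mice. Btk, a kinase that acts below Myd88 in myeloid cells, had log2 fold changes of -2.51 (SE 0.38, adjusted p = 0.000108) in sham and -1.85 (SE 0.39, adjusted p = 0.00623) in ECT mice, where the call was lost without the 8 libraries highest in thalamus genes (adjusted p = 0.188). Pik3ap1 (BCAP), which links the receptors to phosphoinositide 3-kinase, had -1.81 (adjusted p = 5.56e-05) and -1.29 (adjusted p = 0.00549). The other adaptors were not called. Ticam1, the adaptor of Tlr3, had 105 ± 12.4 normalized reads in PLX sham, against 113 ± 13.4 in control sham libraries (adjusted p = 0.78), and Tirap, which bridges Tlr2 and Tlr4 to Myd88, had 74.8 ± 9.91, against 81.1 ± 3.94 (adjusted p = 0.821). Ticam2, which bridges Tlr4 to Ticam1, had 7.44 ± 3.18, against 16.5 ± 6.28 (log2 fold change -1.04, adjusted p = 0.161) and was not called in ECT mice either (-1.09, adjusted p = 0.104).

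Among 10 transcription factors, 3 were lower on PLX in each arm: Spi1 (PU.1), the myeloid lineage factor, and Irf5 and Irf8, interferon regulatory factors of myeloid cells. Over all tested genes 1.77% were called lower in sham and 1.86% in ECT mice. Spi1 had 21.9 ± 4.32 normalized reads in PLX sham, against 101 ± 14.9 in control sham libraries (log2 fold change -2.17, adjusted p = 3.76e-08). Irf8 had log2 fold changes of -1.57 (adjusted p = 3.63e-05) in sham and -2.14 (adjusted p = 4.23e-07) in ECT mice, and Irf5 -1.81 (adjusted p = 9.10e-07) and -2.28 (adjusted p = 3.30e-08). Irf3, the factor below Ticam1, was not called, with 337 ± 34.9 in PLX sham, against 335 ± 43.6 in control sham libraries. The NF-kB subunit genes were not called either, Nfkb1 with 322 ± 27.8, against 374 ± 31.8 (adjusted p = 0.193).

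Of 10 negative regulators, such as Tnfaip3 and Nfkbia, 0 were called by limma in either arm. Over all tested genes 1.77% were called lower and 0.0854% higher in sham mice, and 1.86% and 0.44% in ECT mice. For a list of 10 genes, 0 calls is near these shares and says nothing particular about the negative regulators. Of 14 cytokine and other target genes, 8 had too few reads to be tested and 1 of the other 6, Il1a, was lower in both arms (log2 fold changes -1.52 and -1.58, adjusted p = 0.0279 and 0.0227). Il1a had 3.50 ± 1.40 normalized reads in PLX sham, against 12.6 ± 6.09 in control sham libraries, and its call was lost without any one of several libraries and in several other fits (adjusted p up to 0.127 in sham mice and 0.151 in ECT mice when 1 library was left out).

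**Figure D4:**
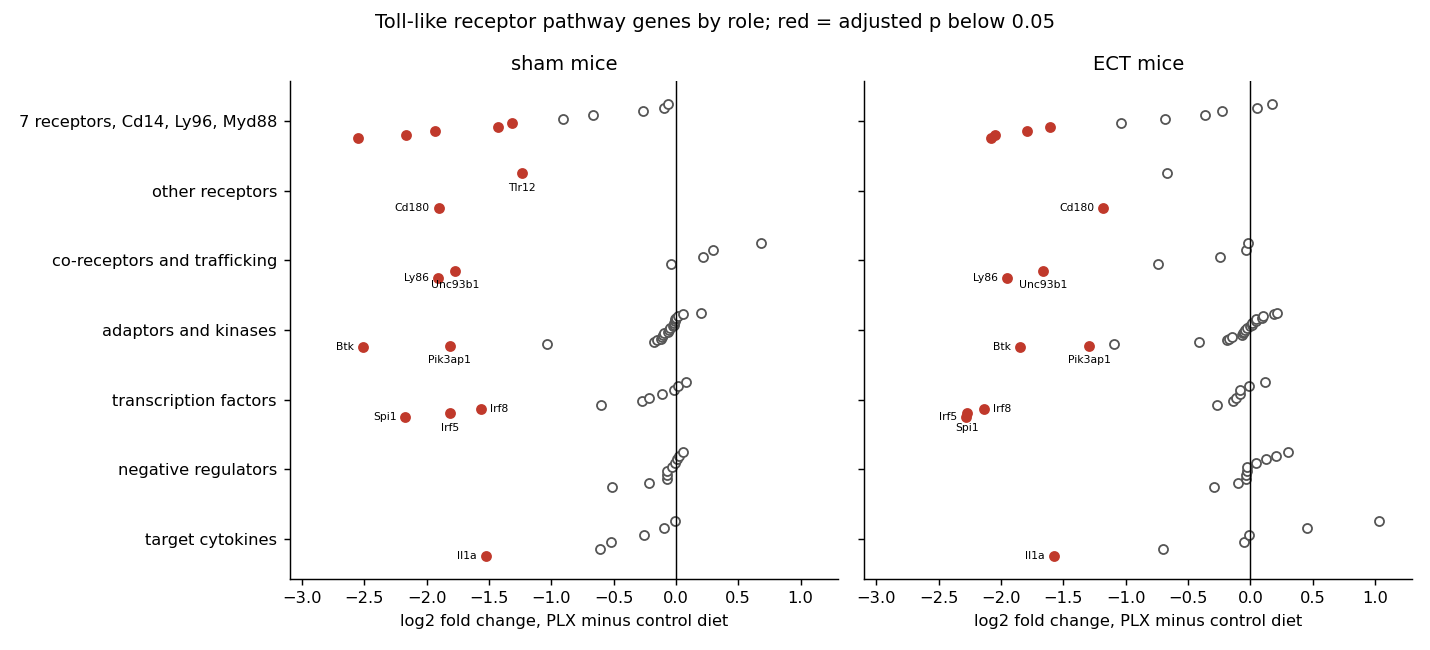
Log2 fold change between PLX and control diet (horizontal axis) of the 10 genes and of 6 lists of other pathway genes by role (vertical axis), in sham mice on the left and ECT mice on the right; red points had an adjusted p below 0.05 and are named, except in the top line. All called genes lie below 0, and 19 of the 21 adaptors and kinases were not called in either panel.

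Finally, the genes whose levels ran most like each member over the 24 libraries were looked up by Pearson correlation of log2(normalized reads + 1), as a description that the diet itself largely sets for the genes that fell. Tlr7 was most like Tmem119 (r = 0.92), Gpr34 (0.92) and Cx3cr1 (0.92), all on the microglia core list. Tlr13 was most like Hpgds (0.94), AF251705 (0.93) and P2ry13 (0.93), and Hpgds and P2ry13 are on that list as well. Among the genes most like Cd14 were Rnase4 (0.95) and Arhgap30 (0.95), and Tlr1 was most like Arhgap30 (0.91), Sipa1 (0.91) and Tgfbr1 (0.91). Tlr2 ran closest to Elf4 (0.85), Irf8 (0.84) and Samsn1 (0.83), and Tlr9 to Trim30a (0.85), Btk (0.82) and Il4ra (0.81). Tlr3 ran closest to Oas1a (0.76), Gbp3 (0.67) and Irgm1 (0.67), which are known as interferon-induced genes. For Tlr4, Ly96 and Myd88 the highest values were 0.79 (Naalad2), 0.70 (Unk) and 0.77 (Fgfr1op2), over libraries that share depth and tissue differences.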

How the data were processed

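Poly(A)-based RNA sequencing of 24 hippocampal libraries was analysed from the deposited table, whose signal columns, per the file headers, hold normalized counts. The submitters' processing notes list TopHat2 2.0.10, cutadapt, DESeq2 1.6.3 and HTSeq 0.6.1p1, as well as mm10 and hg19 with no role for either build. For the annotation and the strand setting used in counting, nothing was given in the sources used here. Each column held whole multiples of one step, which gave whole reads for 100% of the values (tolerance 0.001 reads). Replicates differed by more than counting noise in all 47 pairs (chi-square per degree of freedom 3.61 to 25.7).

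All libraries entered 1 limma 3.58.1 model of the 5 groups (trend, robust; R 4.3.3) on log2(value + 1), restricted to genes that reached 10 in 4 or more libraries, and p-values were adjusted over all tested genes per comparison. Alternatives were pseudocounts of 0.5 and 8, no filter, only the compared groups in the fit, edgeR 4.0.16 (TMM or RLE) and DESeq2 1.42.0 on the recovered reads, limma-voom with the title letter as random effect (consensus correlation 0.189; its meaning is not given), library means of choroid plexus and thalamus genes as covariates, the fit without 8 libraries high in thalamus genes, and each library left out in turn. An ordinary linear model was added after the data were seen, because limma gave the differences from the core more degrees of freedom than the libraries supply. The code of the fits was checked on simulated counts with set diet differences. These held no differences in choroid plexus, thalamus or title letter, so the check says nothing on how such differences act in these libraries.

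The 10 genes and all lists were chosen with earlier results of these data known. Named beyond the 10 genes were called genes of each pathway list, tested other receptors and adaptors, defining markers, and the 3 most correlated genes per member, of which 1 is not reported here. Named outside that rule, after their values were seen, were Cnpy3, Hsp90b1, Lbp, Cd36, Irf3, Nfkb1, Tnfaip3, Nfkbia and the untested receptors Tlr5, Tlr6, Tlr8 and Tlr11. Replicate error is given as SD. Coordinates and exon lengths come from GENCODE M21 (GRCm38), and counting limits such as the floor of 3 reads cover counting error only.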

Additional observations from a re-analysis of the deposited data

Results flagged for a closer look

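In 50 sets of values (10 genes in 5 groups), 4 had a highest library that stood apart from the rest of its group by Dixon's criterion, and chance gives about 1 in 20 sets. Tlr4 had 11.2 normalized reads in library 13 of the PLX ECT group, against 7.26 to 7.92 in the other libraries of that group. Cd14 had 11.4 in library 12 of the PLX ECT group, against 8.91 to 9.31 in the others, and it remained below every control ECT library. Ly96 had 15.5 in library 19 of the PLX sham group, against 8.44 to 10.3 in the others. Tlr13 had 44.6 in library 25 of the nonstressed group, against 32.1 to 33.2 in the others.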

How the results depend on the processing

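Of the 10 genes, 5 were called lower on PLX in sham mice in the reported fit, and 3 with covariates for choroid plexus and thalamus genes. Over the other settings this count was 4 or 5, and in ECT mice it was 4 in each, and leaving out 1 library gave 5 in sham, 4 to 5 in ECT and 6 for the mean of both. The count that differed from the microglia core was 5 to 9 in sham and 6 to 10 in ECT mice over the settings. The number of all genes called in ECT mice (350) was 229 with only the compared groups, 199 without the 8 libraries highest in thalamus genes, and 227 (without library 15) to 387 with 1 library left out. Between ECT and sham on the PLX diet the 0 calls became 0 to 2 with 1 library left out. On the control diet the 1 call became 0 with only the compared groups, limma-voom, the covariates, without the 8 libraries, or in the ordinary model, 10 with DESeq2, and 0 to 4 with 1 library left out. Between stress and nonstressed, 0 became 1 with DESeq2 and 0 to 1 with 1 library left out. The sign turned for genes that were not called. Tlr4 in ECT mice was 0.096 without the 8 libraries. Tlr3 in ECT mice ranged from -0.014 (without library 12) to 0.11, and Ly96 from -0.086 (without library 1) to 0.34. Tlr13 minus the core in sham mice was -5.98e-05 with a pseudocount of 0.5, -0.0198 with limma-voom, -0.11 without the 8 libraries, and -0.12 to 0.47 with 1 library left out. Cd14 minus the core in sham mice was 0.26 with a pseudocount of 8. Their cause was not tested. No paired analysis was possible because every library carries its own number and the groups share none. Few reads limit Tlr1, Tlr4 and Ly96, whose values rest on 2 to 23 reads. The same limit holds for the PLX values of genes that were called lower. These rest on 3 to 12 reads for Cd14, 2 to 13 for Tlr13, 4 to 17 for Tlr7 and 2 to 16 for Tlr9.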
